A study of Mus musculus with 8 samples.

Results

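Neurotrophins are secreted growth factors, and the 5 genes described here are 2 of the ligands and 3 of the receptors of that family: *Bdnf* (brain-derived neurotrophic factor), *Ntf3* (neurotrophin-3), *Ngfr* (the p75 receptor), *Ntrk2* (TrkB) and *Ntrk3* (TrkC). They were taken by symbol from a table of read counts for 45583 genes, and all 5 were found. The ovaries came from female mice labelled C57/Bl6, 3 weeks old, of which 4 were WT and 4 were GOAT KO, bred as littermates, with a genetic deletion of ghrelin O-acyltransferase (GOAT, gene *Mboat4*), the enzyme that acylates ghrelin. Each library held 1 ovary of 1 mouse and is named by its animal number, 1118 to 1121 for WT and 1139, 1140, 1141 and 1146 for GOAT KO. The comparison asked whether losing GOAT changed these transcripts in the juvenile ovary.

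Ligands of this family are made as longer precursors that proteases trim. BDNF binds TrkB and neurotrophin-3 binds TrkC with high affinity, both receptors being tyrosine kinases, while p75 binds every neurotrophin and has no kinase. *Ntrk2* and *Ntrk3* each also encode truncated receptors, which keep the part that binds the ligand but replace the kinase with a short tail. In the ovary, neurotrophins are best known for their role in the assembly and growth of follicles and in the sympathetic innervation of the gland.

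The gene counts summed to between 16147216 and 19481798 per library, and 85.92% to 87.02% of reads had been mapped. *Mboat4* went against the labels: it had 1, 1, 1 and 3 counts in WT 1118, 1119, 1120 and 1121, against 5, 7, 7 and 8 counts in GOAT KO 1139, 1140, 1141 and 1146. Which part of the gene is missing in the knockout was not given in the sources used here, so counts over the whole gene may not check it, and directions below refer to the libraries labelled GOAT KO and labelled WT. The tissue matched its label, with 12 oocyte markers summing to between 1104 and 1350 CPM (counts per 1000000 counts on genes, with TMM scaling between libraries) and 9 granulosa cell markers to between 4959 and 6470 CPM. GOAT KO 1139 stood apart, with 652 CPM summed over 7 adipose tissue markers against 15.4 to 38.0 CPM in the other 7 libraries. WT 1120 stood apart from the other WT libraries in *Cyp17a1* (355 against 50.2 to 58.7 CPM) and *Cyp19a1* (65.0 against 5.06 to 9.70 CPM), enzymes of steroid synthesis named after their values were seen, for which GOAT KO 1139 had 601 and 45.2 CPM. The study left out 1 library of each group after a multidimensional scaling plot, and which 2 these were was not given in the sources used here. Results are also given for the 6 libraries without WT 1120 and GOAT KO 1139, a pair chosen with earlier results of these data known.

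The point at which the truncated and the full-length receptor messages part is shown for both Trk genes, because the isoform results below turn on it. Lower case marks the last 30 bases of the exon that both forms share, and capitals mark the first 38 bases of the next exon, read 5′ to 3′ on the strand of the gene from GENCODE transcripts of GRCm38.
*Ntrk2* truncated: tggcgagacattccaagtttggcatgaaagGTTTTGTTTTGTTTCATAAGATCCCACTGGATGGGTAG
*Ntrk2* full-length: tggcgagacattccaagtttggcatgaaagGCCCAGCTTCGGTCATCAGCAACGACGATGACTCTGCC
*Ntrk3* truncated: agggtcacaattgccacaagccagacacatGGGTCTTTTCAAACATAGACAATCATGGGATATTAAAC
*Ntrk3* full-length: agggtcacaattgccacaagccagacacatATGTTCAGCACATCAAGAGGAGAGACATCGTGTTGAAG
In *Ntrk2*, on the plus strand of chromosome 13, the shared exon lies at 58878163 to 58878262. The truncated message continues at 58932023 to 58937027, an exon whose only coding bases are the 38 shown, ending in the stop codon TAG. The full-length message continues at 58985802 to 58985990. In *Ntrk3*, on the minus strand of chromosome 7, the shared exon lies at 78356027 to 78356215, the next truncated exon at 78304292 to 78304426 and the next full-length exon at 78260284 to 78260414.

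No member passed the call rule of the study (unadjusted p under 0.05 and absolute log2 fold change over 0.5) in the comparison of all 8 libraries, in which 278 of 16601 tested genes, or 1.67%, were called. Of the 5 members, 4 passed the filter on low counts, and *Ntf3* lay below it. *Ngfr*, *Ntrk2* and *Ntrk3* had lower means in GOAT KO than in WT and *Bdnf* had about the same mean, with overlapping groups for every member, while groups did not overlap for 2.92% of the genes tested. All adjusted p values (edgeR quasi-likelihood test, Benjamini-Hochberg over all genes tested) were 0.983 or above for these 4, and 4 of the genes tested, or 0.0241%, passed an adjusted p of 0.05. No member had an unadjusted p under 0.05, which 4.62% of genes had.

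**Figure D1:**
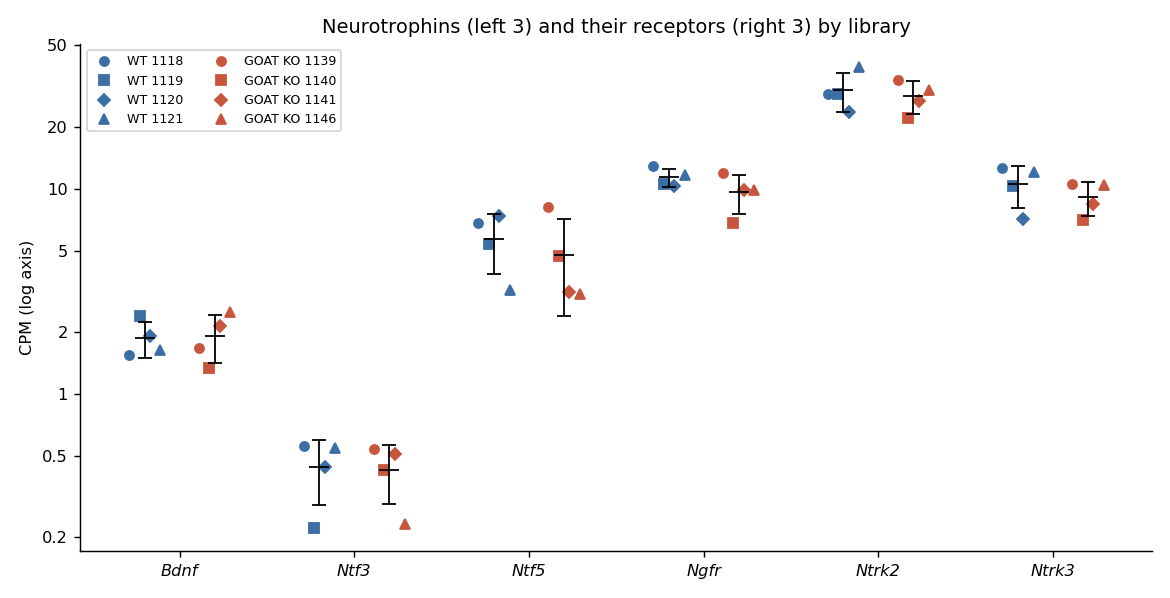
CPM (log axis) of 3 neurotrophins and 3 of their receptors in each library, with 4 WT libraries in blue and 4 GOAT KO libraries in red; bars are mean ± SD. The groups overlap for every gene, and *Ntrk2* is the highest of the 6 in CPM.

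Brain-derived neurotrophic factor was measured at a low level. *Bdnf* (chromosome 2, 109674700 to 109727007, plus strand) had 25, 43, 35 and 30 counts in WT 1118, 1119, 1120 and 1121, or 1.55, 2.39, 1.92 and 1.64 CPM. GOAT KO 1139, 1140, 1141 and 1146 had 28, 22, 42 and 43 counts, or 1.68, 1.34, 2.15 and 2.50 CPM. Both the lowest and the highest library were GOAT KO, and the WT values lay between them. The WT mean was 1.87 ± 0.379 CPM and the GOAT KO mean 1.92 ± 0.510 CPM (SD, n = 4 each). The log2 fold change (GOAT KO over WT) was 0.036 ± 0.23 (SE) with a 95% interval of -0.47 to 0.54, which includes a rise of the size of the call rule. The adjusted p of edgeR was 0.991 and the exact two-sided permutation test of the CPM gave p = 0.886. Exons of *Bdnf* overlap those of the antisense gene Gm45346 over 896 bases, and whether the counting used the strand was not given in the sources used here.

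*Ntf3* (chromosome 6, 126101412 to 126166910, minus strand), the ligand of TrkC, was close to the limit of detection. It had 9, 4, 8 and 10 counts in WT 1118, 1119, 1120 and 1121, against 9, 7, 10 and 4 counts in GOAT KO 1139, 1140, 1141 and 1146. The highest CPM was 0.558, below the 0.566 CPM of the filter. One library of each group, WT 1119 and GOAT KO 1146, had 4 counts, and the rest lay between 7 and 10. The WT mean was 0.441 ± 0.155 CPM and the GOAT KO mean 0.428 ± 0.138 CPM (SD, n = 4 each; exact two-sided permutation p = 0.743). At this depth only a large difference could have been seen: fitted with no filter, the log2 fold change was -0.041 with an SE of 0.40.

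The p75 receptor gene *Ngfr* (chromosome 11, 95568818 to 95587735, minus strand) showed its lowest value in a GOAT KO library. The WT libraries 1118, 1119, 1120 and 1121 had 208, 189, 189 and 215 counts, or 12.9, 10.5, 10.4 and 11.7 CPM. GOAT KO 1139, 1140, 1141 and 1146 had 200, 112, 193 and 169 counts, or 12.0, 6.84, 9.88 and 9.82 CPM. All GOAT KO values but one lay below every WT value, the exception being GOAT KO 1139. The WT mean was 11.4 ± 1.18 CPM and the GOAT KO mean 9.63 ± 2.11 CPM (SD, n = 4 each). The log2 fold change was -0.24 ± 0.16 (SE), with a 95% interval of -0.58 to 0.10, an adjusted edgeR p of 0.983 and an exact two-sided permutation p of 0.171. GOAT KO 1140 carried much of it: without that library the log2 fold change was -0.11, and without GOAT KO 1139 it was -0.36.

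*Ntrk2* (chromosome 13, 58806569 to 59133970, plus strand), the receptor of BDNF, had the most counts of the family. The WT libraries 1118, 1119, 1120 and 1121 had 468, 520, 431 and 720 counts, or 29.0, 28.9, 23.7 and 39.3 CPM. GOAT KO 1139, 1140, 1141 and 1146 had 570, 361, 526 and 523 counts, or 34.1, 22.1, 26.9 and 30.4 CPM. WT 1121 was the highest and GOAT KO 1140 the lowest, and the other libraries of the groups overlapped, WT between 23.7 and 29.0 CPM and GOAT KO between 26.9 and 34.1 CPM. The WT mean was 30.2 ± 6.53 CPM and the GOAT KO mean 28.4 ± 5.13 CPM (SD, n = 4 each). The log2 fold change was -0.09 ± 0.16 (SE), with a 95% interval of -0.45 to 0.26, an adjusted edgeR p of 0.983 and an exact two-sided permutation p of 0.629. Its sign turned without either of these libraries, to 0.059 without WT 1121 and 0.012 without GOAT KO 1140.

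*Ntrk3* (chromosome 7, 78175959 to 78738012, minus strand) had 203, 185, 130 and 221 counts in WT 1118, 1119, 1120 and 1121, or 12.6, 10.3, 7.13 and 12.0 CPM. GOAT KO 1139, 1140, 1141 and 1146 had 176, 115, 164 and 179 counts, or 10.5, 7.03, 8.40 and 10.4 CPM. The low values were WT 1120 and GOAT KO 1140, which lay close together. The WT mean was 10.5 ± 2.45 CPM and the GOAT KO mean 9.09 ± 1.69 CPM (SD, n = 4 each). The log2 fold change was -0.21 ± 0.19 (SE), with a 95% interval of -0.62 to 0.21, an adjusted edgeR p of 0.983 and an exact two-sided permutation p of 0.371. Without WT 1120 it was -0.36, and without GOAT KO 1140 it was -0.10.

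In the 6 libraries without WT 1120 and GOAT KO 1139, the 3 receptors lay lower in GOAT KO by a larger amount. The log2 fold change of *Ngfr* was -0.40 (edgeR, unadjusted p = 0.0273, adjusted p = 0.501). That of *Ntrk2* was -0.29 (edgeR, unadjusted p = 0.0625, adjusted p = 0.552) and that of *Ntrk3* -0.43 (edgeR, unadjusted p = 0.0172, adjusted p = 0.452), while *Bdnf* was at 0.11 (edgeR, adjusted p = 0.924). None reached the fold change of the call rule, and 398 of 16641 genes, or 2.39%, were called in these libraries. For pathway analysis the study lowered the log2 fold change to 0.3. *Ngfr* and *Ntrk3* passed that rule in the 6 libraries, as did 793 genes, or 4.77%, of which 368, or 2.21% of the genes tested, were lower. In all 8 libraries neither passed it. In whole ovaries, fewer cells of a type that carries a transcript and less of the transcript per cell cannot be told apart.

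**Figure D2:**
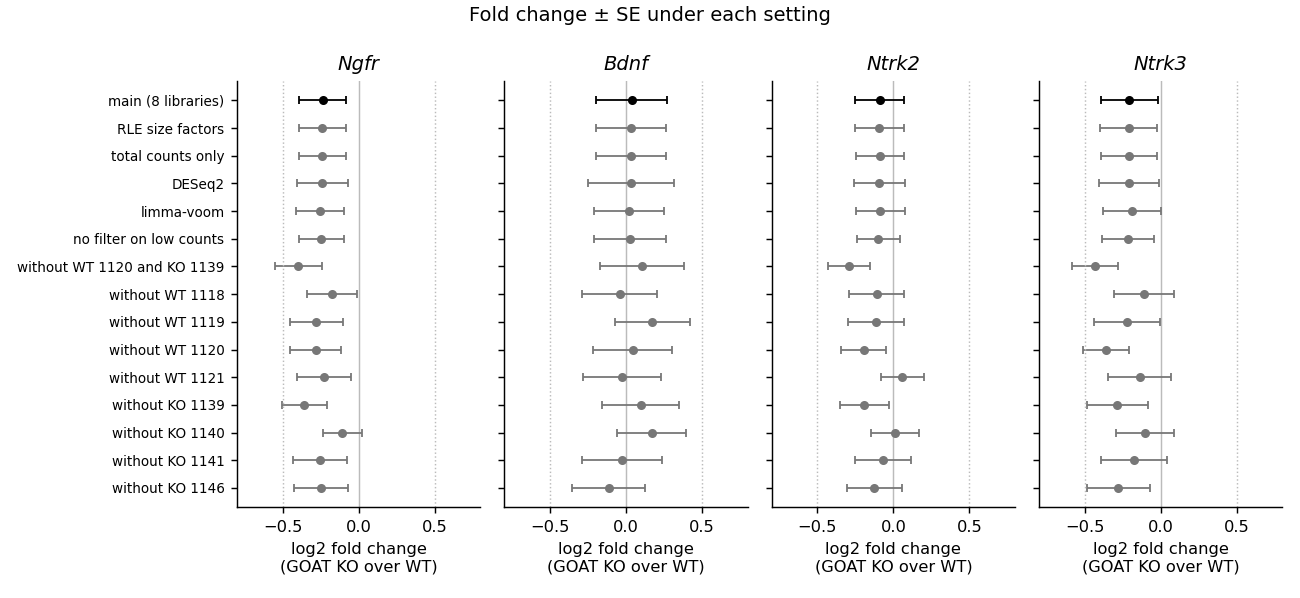
Log2 fold change (GOAT KO over WT) ± SE of the 4 members tested, for all 8 libraries (black) and for each other scaling, test, filter or set of libraries (grey); dotted lines stand at -0.5 and 0.5. *Ngfr* and *Ntrk3* stay below 0 in all 15 fits, between -0.40 and -0.11 and between -0.43 and -0.10, whereas *Bdnf* and *Ntrk2* cross 0 when single libraries are left out.

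*Ntf5* (neurotrophin-4, the other ligand of TrkB) was read beside the members. It had 6.81, 5.39, 7.35 and 3.22 CPM in WT 1118, 1119, 1120 and 1121, against 8.14, 4.71, 3.12 and 3.08 CPM in GOAT KO 1139, 1140, 1141 and 1146. WT 1120 and GOAT KO 1139 were the highest of their group. The log2 fold change was -0.26 ± 0.33 (SE), and *Ntf5* was not called (edgeR, adjusted p = 0.983). Single libraries moved it: without GOAT KO 1139 it was -0.65 and was called lower (edgeR, unadjusted p = 0.0397, adjusted p = 0.970), and in the 6 libraries it was -0.50 and was not called (edgeR, unadjusted p = 0.0946, adjusted p = 0.578). It was -0.46 without WT 1121, -0.17 without WT 1118, -0.12 without WT 1120 and -0.10 without GOAT KO 1141 or without GOAT KO 1146.

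Levels were compared between genes per length, as CPM per kb of all annotated exons, over the 8 libraries. *Ngfr* stood first at 3.05 ± 0.532, followed by *Ntf5* at 1.97 ± 0.766, *Ntrk2* at 1.52 ± 0.286, *Ntrk3* at 0.325 ± 0.0694, *Bdnf* at 0.305 ± 0.0670 and *Ntf3* at 0.253 ± 0.0795 (SD, n = 8 each). The ranges of neighbours overlapped except between *Ntrk2* and *Ntrk3*. On this scale *Ngfr* lay above *Ntf5*, and *Ntrk2* above *Ntrk3*, in 8 of 8 libraries. *Ntf5* lay above *Ntrk2* in 5 of 8, *Ntrk3* above *Bdnf* in 4 of 8 and *Bdnf* above *Ntf3* in 4 of 8. The places of *Ntrk2* (19.292 kb of exons) and *Ntrk3* (30.17 kb), and so that of *Ngfr* above both, rest on this choice of length. That length includes long exons of single isoforms that were hardly assembled. In the last exon of the truncated form, the median depth over the bases that were assembled was 3.48 reads per base for *Ntrk2* (6 libraries) and 4.84 for *Ntrk3* (8 libraries), so that the gap between these receptors on the scale above was not seen there. *Ntrk3* had assembled exons in 8 of 8 libraries and *Bdnf* in 0.

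*Ntrk2* and *Ntrk3* moved together from library to library, and *Ngfr* moved with them in part. Across the 8 libraries, Pearson's r of log2 CPM was 0.84 between *Ntrk2* and *Ntrk3*, 0.77 between *Ngfr* and *Ntrk3* and 0.70 between *Ngfr* and *Ntrk2*, whereas *Bdnf* had r between 0.070 and 0.14 with these and *Ntf5* between -0.20 and 0.29. *Ntf3* was too low to be included. GOAT KO 1140 was the lowest library for these 3 receptors and for *Bdnf*, and values turned on it. Without it, r was 0.76 between *Ntrk2* and *Ntrk3* and 0.68 between *Ngfr* and *Ntrk3*, but 0.47 between *Ngfr* and *Ntrk2*, below the 0.51 between *Ngfr* and *Ntf5*, and -0.89 between *Ngfr* and *Bdnf*. These are descriptions over 8 points that share library preparation and tissue composition.

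**Figure D3:**
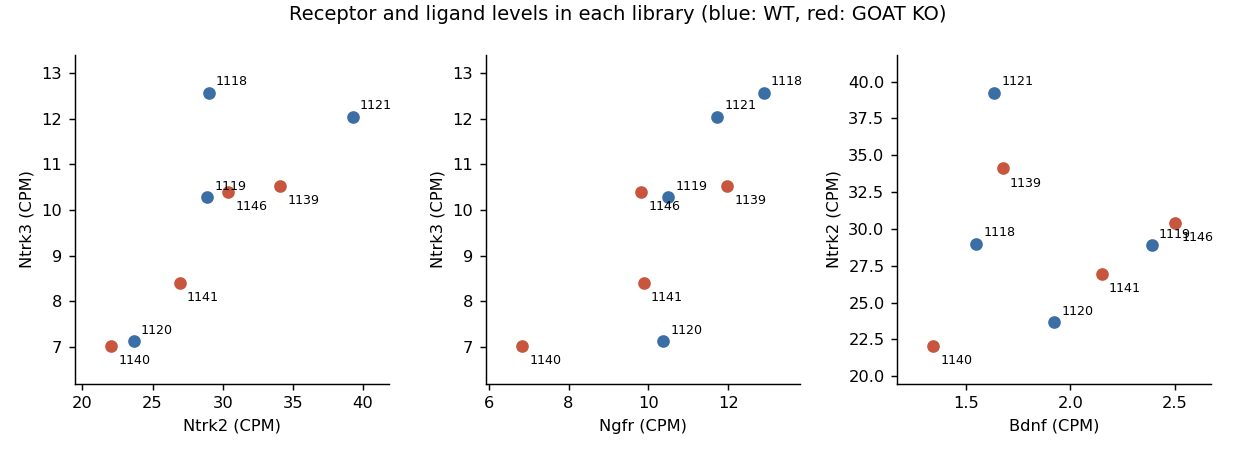
Level in CPM of *Ntrk3* against *Ntrk2*, *Ntrk3* against *Ngfr* and *Ntrk2* against *Bdnf*, 1 point per library with its animal number (WT blue, GOAT KO red). GOAT KO 1140 lies at the bottom left of every panel, and the receptors rise together over the 8 libraries while *Bdnf* and *Ntrk2* do not.

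Among 15458 genes with a mean of at least 1 CPM, the most like *Ngfr* across the 8 libraries were *Piezo1* (r = 0.954), a mechanically gated ion channel, *Lrp5* (0.952), a Wnt co-receptor, and Gm15491 (0.947). The most like *Ntrk3* were *Cdh5* (r = 0.956), the cadherin of endothelial junctions, *Whsc1l1* (0.954) and *Notch3* (0.951), a receptor of mural cells of vessels. *Ntrk2* was most like 9330175E14Rik (0.975), *Myh9* (0.957), a non-muscle myosin heavy chain, and *Csf2rb2* (0.924). *Bdnf* was most like Gm13033 (0.949), *Ramp1* (0.930), a partner of the calcitonin gene-related peptide receptor, and *Acbd6* (0.929). These are the highest of many correlations over 8 libraries each.

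Most of the *Ntrk2* signal that could be placed on an isoform by the annotation lay in the last exon of the truncated receptor. The transcripts that the authors assembled contained the last exon of the truncated form as 1 block of 4944 to 4972 of its 5005 bases in 6 of 8 libraries, at a mean depth of 3.21, 2.97 and 4.86 reads per base in WT 1119, 1120 and 1121 and of 3.80, 3.58 and 3.37 in GOAT KO 1139, 1141 and 1146. The shared exon before it, printed above, was not assembled in any library. No assembled exon or junction read therefore joined this block to the other receptor exons, and its place on the truncated form rests on the annotation. Of the 6690 bases of exons found only in the full-length form, downstream of the full-length junction printed above, 0 were assembled in any of 8 libraries. Exons below the assembler's limits are not listed, so that low levels of the full-length form were not detectable by this measure.

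Expressed as reads (depth times length over the 50-base read length), the last truncated exon was worth 61.3% to 68.4% of the gene count of *Ntrk2* in these 6 libraries. Part of this is its length of 5005 bases: its mean depth per base was 0.563 to 0.770 of that of the assembled shared exons (median 0.712), and so the percent is a share of reads and not of messages. The WT mean of the percent was 65.6% ± 3.77 and the GOAT KO mean 65.9% ± 2.04 (SD, n = 3 each; exact two-sided permutation p = 0.9, of which the smallest possible is 0.1). Together with the exons that both forms share, the assembled exons were worth 94.6% to 98.8% of the gene count. Assembled depth and gene counts are not the same unit, and for *Ntrk3* the assembled exons came to more than the gene count, so that the remainder is no limit on reads of other exons. In WT 1118 and GOAT KO 1140, where the last truncated exon was not assembled, the gene count exceeded the assembled reads by 311 and 257. GOAT KO 1140 had the fewest *Ntrk2* counts of all libraries and WT 1118 the third fewest.

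**Figure D4:**
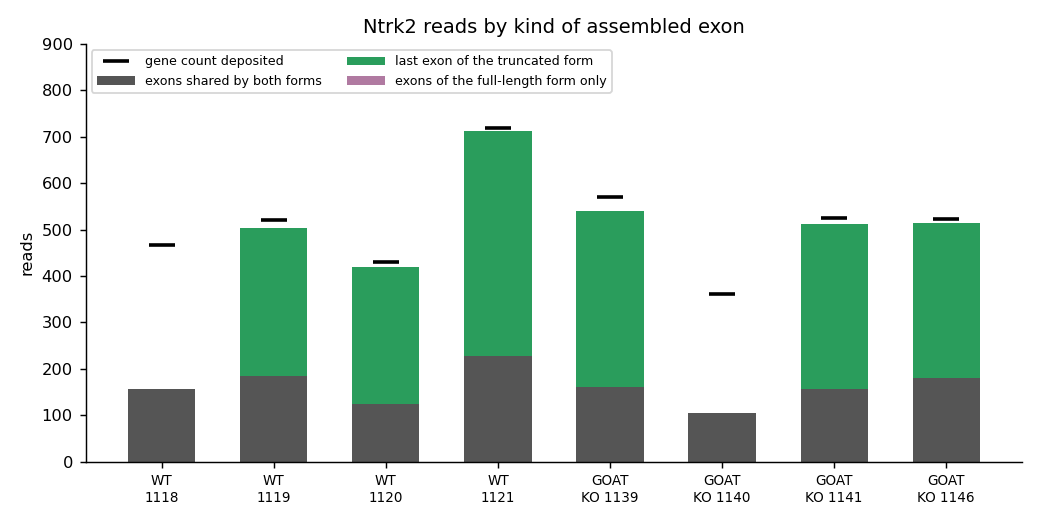
Reads of *Ntrk2* in each library by the kind of assembled exon (stacked bars: shared exons in grey, the last exon of the truncated form in green, exons of the full-length form, at 0 throughout, in purple), with the deposited gene count as a black line. In 6 of 8 libraries the green part is the larger one and the bar reaches 94.6% to 98.8% of the gene count.

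Splice junctions could not settle the share of the forms. Reads across the shared junctions of *Ntrk2* numbered 58, 71, 50 and 96 in WT 1118, 1119, 1120 and 1121, against 63, 47, 60 and 68 in GOAT KO 1139, 1140, 1141 and 1146. They fell on 9 of the 10 shared junctions. The last of these, an intron at 58874426 to 58878162 that both forms use, had 0 reads, as had the 1 junction of the truncated form and the 6 of the full-length form. Junctions of neither form were therefore informative.

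For *Ntrk3*, the last exon of the truncated receptor was assembled in all 8 libraries, over 1490 to 1966 of its 2058 bases, while the exon of 135 bases before it, the next truncated exon printed above, was assembled in 0 libraries. Its mean depth was 5.03, 5.38, 3.99 and 5.26 reads per base in WT 1118, 1119, 1120 and 1121, against 4.89, 3.21, 4.79 and 4.57 in GOAT KO 1139, 1140, 1141 and 1146. These depths are not scaled for library size and are averaged over the assembled bases only. The lowest depths were again those of WT 1120 and GOAT KO 1140. The WT mean of 4.92 ± 0.636 and the GOAT KO mean of 4.37 ± 0.781 (SD, n = 4 each) did not differ beyond their spread (exact two-sided permutation p = 0.343).

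Of the 17493 bases of exons of the full-length *Ntrk3* alone, 20 were assembled in GOAT KO 1139 and 97 in GOAT KO 1146, and 0 in the other 6 libraries. The same 2 libraries had 2 reads each across the full-length junction printed above, 4 in all. The 2 junctions of the truncated form had 0 reads although its last exon was assembled, so the junction counts do not give the share of the forms. The assembled exons of *Ntrk3* were worth 123% to 165% of its gene count, so no share of the gene count was taken. The cause of this excess was not tested.

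**Figure D5:**
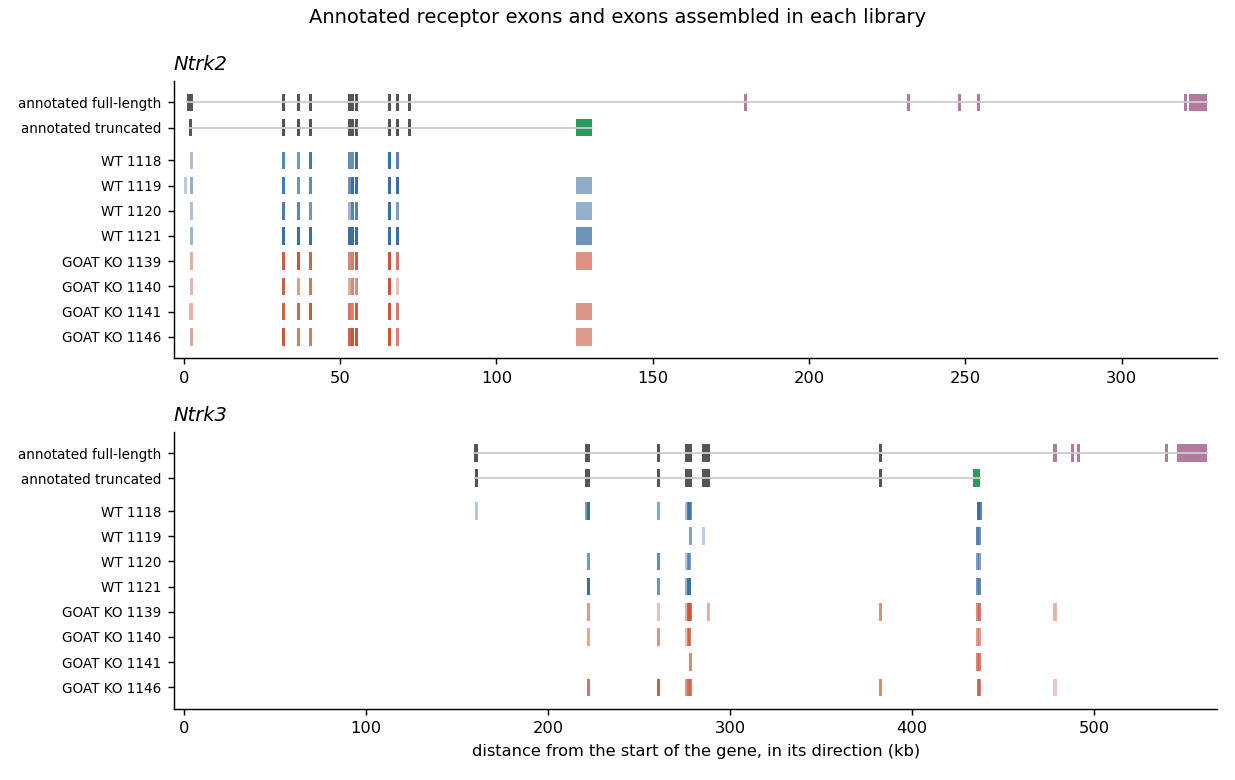
Exons of the annotated full-length and truncated receptors (shared grey, truncated only green, full-length only purple) and the exons assembled in each library (WT blue, GOAT KO red, darker at greater depth), against distance from the start of the gene in kb; very short exons are drawn wider than scale. The last exon of the truncated form is assembled in 6 of 8 libraries for *Ntrk2* and 8 of 8 for *Ntrk3*, and full-length exons appear only in GOAT KO 1139 and GOAT KO 1146 for *Ntrk3*.

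The other receptor and ligand genes gave less. *Ngfr* had 58 junction reads on 4 junctions over all libraries and assembled exons in 7 of 8 libraries. *Bdnf* and *Ntf3* had 0 junction reads and no assembled exon, so the promoter that *Bdnf* messages start from was not detectable at this depth.

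The wider pathway was read from lists of 87 symbols, of which 86 were in the table and 80 were tested. The symbol not found was *Bex3*, whose older symbol *Ngfrap1* is also listed and was found, so that every gene of the lists was in the table. Of these, 0 were called higher and 0 lower by edgeR, beside 0.958% and 0.717% of all genes tested. DESeq2 and limma-voom also called 0, and 1 gene, *Pcsk5*, had an unadjusted p under 0.05 in edgeR. The median log2 fold change was -0.037 over the list and -0.00035 over all genes, and 28 of the 80 lay above 0 beside 8282 of 16601. In the 6 libraries, 0 were called higher and 1 lower, beside 1.32% and 1.08% of all genes tested.

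Among 8 co-receptors and sortilins, which bind the precursors or assist p75, 0 were called, beside 1.67% of all genes tested. *Sort1* (sortilin) was at -0.04 and *Sorcs2* at 0.08 (log2 fold change). Of 13 genes for processing of the precursors, 10 were tested and 0 called. *Furin*, a convertase that trims them, was at -0.10 and *Pcsk5*, another convertase, at 0.16 (edgeR, unadjusted p = 0.0253, adjusted p = 0.983), short of the fold change of the call rule. *Mmp9*, a protease that can cleave precursors outside the cell, was at -0.52 (edgeR, unadjusted p = 0.0821, adjusted p = 0.983) in all libraries and at -0.75 (edgeR, unadjusted p = 0.0162, adjusted p = 0.447) in the 6 libraries, where it was the gene called lower, as it was without WT 1120 alone (-0.71). It was named after its values were seen.

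Of the 24 adaptors that carry signals from Trk receptors, 0 were called, beside 1.67% of all genes tested. *Shc1* and *Frs2*, which dock on the active kinase, were at 0.022 and -0.063 (log2 fold change). Of the 18 p75 adaptors tested, 0 were called, and *Maged1* and *Traf6* were at -0.046 and -0.014. Of the 17 genes that Trk signals induce in neurons, 15 were tested and 0 called, with a median of -0.11 and 3 of 15 above 0. *Egr1*, an immediate early transcription factor, was at -0.23 ± 0.23 (SE). The lowest and the highest of the 15 were *Junb* at -0.38 ± 0.23 and *Crem* at 0.46 ± 0.31, which had 32.4 CPM in GOAT KO 1139 and 10.4 to 15.4 CPM in the other 7 libraries. Without WT 1120, *Junb* was called lower, at -0.51 (edgeR, unadjusted p = 0.0441, adjusted p = 0.463). These genes answer to many stimuli besides neurotrophins.

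The GDNF and CNTF families of neurotrophic factors were set beside the neurotrophins. Of 9 genes of the GDNF family and its receptors, 5 were tested and 0 called, beside 1.67% of all genes tested. *Gdnf* was at 0.13 ± 0.090 (log2 fold change, SE). Of 9 genes of the CNTF and LIF family and its receptors, 7 were tested and 0 called, with *Clcf1* at 0 counts in every library.

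Markers of nerve cells, ovarian cells and neighbouring tissues were read for the same libraries, and which of these carry the receptors was not tested. The 13 Schwann cell markers summed to between 173 and 205 CPM and 0 of the 7 tested were called. Of the 16 neuron markers, 11 were tested and 1 was called higher, *Prph* (peripherin), at 1.07 ± 0.41 (SE), which was named after its values were seen, beside 0.958% of all genes tested. *Prph* was low, with 132 counts in all and an adjusted edgeR p of 0.983, and its highest value, 2.21 CPM, was in GOAT KO 1139. In the 6 libraries it was at 0.97 and was called higher too. The median over the 11 was 0.011, with 6 above 0. *Dbh*, an enzyme of noradrenaline synthesis and a marker of sympathetic neurons, lay below the filter with 58 counts in all. It was at 0.556 to 0.619 CPM in WT and 0.183 to 0.299 CPM in GOAT KO, without overlap, beside 2.92% of the genes tested. *Th* and *Ddc*, enzymes of the same synthesis, were at 0.32 ± 0.19 and 0.37 ± 0.18 (log2 fold change, SE) and were not called. *Phox2a*, a transcription factor of sympathetic neurons, had 1 count in all. Among markers of theca, stroma, pericytes and oviduct, 0 were called. Of the 9 stroma markers 7 lay above 0. *Col1a1* at 0.36 and *Col1a2* at 0.28 among them fell short of the fold change of the call rule (edgeR, unadjusted p = 0.00238 and 0.00619, adjusted p = 0.983 each). Of the granulosa cell markers *Inhba* was called higher, of the oocyte markers *Sohlh1*, and of the adipose tissue markers all 6 tested, which became 1 of 6 in the 6 libraries. In these 6 libraries, in which the receptors lay further below WT, the granulosa cell markers called higher numbered 3 of 9 (*Fshr* at 0.68, *Inhba* at 1.36 and *Cyp19a1* at 1.39, log2 fold change), beside 1.32% of all genes tested, and the median over the 9 went from 0.22 to 0.34. In all 8 libraries these 3 were at 0.47, 0.95 and 0.22. WT 1120, left out here, had the highest WT value of each of the 3 and the lowest WT value of *Ngfr*, *Ntrk2* and *Ntrk3*. Both shifts therefore follow in part from the choice of libraries. *Amh* and *Foxl2*, of the granulosa cell list, were at -0.21 and -0.22 there and were not called. Of the theca, stroma, pericyte and oviduct markers, 0 were called in the 6 libraries either, with values on both sides of 0. *Cyp11a1* was at 0.48 and *Col1a1* at 0.30, against *Gli1* at -0.28 and *Pdgfrb* at -0.31. The part of these cells in the levels of the receptors was not tested.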

How the data were processed

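Ovaries of 4 WT and 4 GOAT KO mice were sequenced as 50-base single reads, 1 library per mouse. The authors aligned them with TopHat2 2.0.14 to GRCm38 (mm10) and deposited counts per gene symbol, not normalized. Junction counts per library, the percent of reads mapped and transcripts assembled with StringTie 1.0.4, with read depth per exon, were also deposited. The counting tool and its use of the strand were not given in the sources used here. Libraries of one group differed by more than sampling noise.

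Counts were compared with edgeR 4.0.16 in R 4.3.3 (TMM scaling, filterByExpr with at least 10 counts in 4 libraries of median size and 15 in all, quasi-likelihood test) over all 8 libraries. CPM are counts per 1000000 counts on genes, scaled by the TMM factors. The call rule is the study's. Values of one gene were tested by exactly permuting the libraries (exact permutation test), whose smallest two-sided p is 0.0286 for 4 against 4. Alternatives were RLE factors, total counts, DESeq2 1.42.0, limma-voom (limma 3.58.1), no filter, a fold change over 0.3, 6 libraries and each library left out. Planned shares of junction reads at the point where isoforms part, and of *Bdnf* first exons, could not be computed, and assembled exon depth replaced them after the data were seen. Exons and sequences come from GENCODE vM21.

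Some genes of the lists are not reported here and were left out of the counts over lists. Named genes are the members, *Ntf5*, *Mboat4*, called pathway genes and the 3 genes most correlated with each tested member; other genes of the lists were named as examples after their values were seen. Members and lists were chosen with earlier results of these data known. The fit was tested on simulated data.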

Additional observations from a re-analysis of the deposited data

How the results depend on the processing

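No paired analysis was possible because the replicate numbers are animal numbers that the groups do not share. Signs turned for *Bdnf* and *Ntrk2*, both within their errors: the log2 fold change of *Bdnf* ranged from -0.11 to 0.17 with 1 library left out (-0.042 without WT 1118, -0.028 without WT 1121, -0.029 without GOAT KO 1141, -0.11 without GOAT KO 1146), and that of *Ntrk2* from -0.20 to 0.059 (0.012 without GOAT KO 1140). *Ngfr* and *Ntrk3* kept their direction, and no member was called, under any of their 14 alternatives at a fold change over 0.5, with adjusted p from 0.452 to 1.00 over the members tested. Without a library, 231 to 437 genes were called (437 without WT 1120). With no filter 691 were called and with a fold change over 0.3, 473, or 793 in the 6 libraries, an alternative chosen after seeing the data. Pathway genes called numbered 2 with no filter (*Mmp3* and *Plg*), 1 in the 6 libraries (*Mmp9*), 4 there with a fold change over 0.3 (*Mmp9*, *Ngfr*, *Ntrk3* and *Shc2*) and 0 to 2 with a library left out (*Junb* and *Mmp9* without WT 1120, *Ntf5* without GOAT KO 1139). DESeq2 called 210 genes. The share of *Ntrk2* reads in the last truncated exon stayed between 64.9% and 67.6% under 9 alternatives, all chosen after seeing the data. The planned junction shares of *Ntrk2*, *Ntrk3* and *Bdnf* gave no value, so their alternatives were not run. *Ntf3* could be fitted only with no filter.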
